A study of Mus musculus with 36 samples.

Results

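Mesenteric lymph nodes of mice given a soluble lymphotoxin-beta receptor for 27 days were compared with nodes of mice given phosphate-buffered saline (PBS, named day 0 in the sample titles). Per the labels the groups were 3 day 27 and 3 PBS samples on each of 2 Affymetrix arrays (A and B) with largely different probe sets. These samples were 12 of the 36 measurements of the series, which also holds 1, 2, 3 and 35 days of the same treatment. Samples were chosen by their titles alone, and each array was analysed separately on log2 values. The sources used here give no strain, genotype, age, dose or number of injections. The labels name no PBS group harvested at day 27 and no control protein, so time since day 0 and exposure to a foreign protein cannot be told apart from the loss of receptor signalling. The labels do not say either that replicates were separate animals. The p-values therefore measure only the spread between samples within groups, pooled over all 6 groups of each array.

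The lymphotoxin-beta receptor sits on stromal and some myeloid cells and binds the membrane lymphotoxin made by B cells and other lymphocytes, as well as the related ligand Tnfsf14. Receptor engagement activates canonical and noncanonical NF-kB. In adult lymph nodes this signal is known to maintain high endothelial venules, through which lymphocytes enter from the blood, and the follicular dendritic cells that hold antigen and attract B cells. A soluble receptor takes up the ligands before they reach the cells.

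The median intensity per sample lay between 272.9 and 296.5 on array A, and between 155.1 and 159.4 on array B. Array A holds 22626 probe sets and array B 22511, of which 12231 and 12516 passed the filter on dim signals and were tested with limma. Correlations between samples on array A were 0.963 to 0.987 within day 27 and 0.979 to 0.987 within PBS. Day 27 replicate 2 stood apart on array A. It had the lowest limma array weight of the 6 samples, 0.232, where 1 is average, and on array B its weight was 1.1. The node label fitted the markers measured. The B cell receptor chain gene Cd79a read 3342 to 3459 in PBS samples, and the venule product Glycam1 read 5239 to 6627. Fat cell genes were bright as well, with a summed level over 21 genes of 57490 to 61640 intensity units in PBS samples and 57060 to 66910 at day 27.

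After 27 days more probe sets were called lower than higher, a balance that turned with limma array weights. Array A had 389 probe sets called at an adjusted p under 0.05, or 3.18% of those tested, of which 318 were lower (2.60%) and 71 higher (0.580%). Array B had 41 called (0.328%), with 41 lower (0.328%) and 0 higher (0%). At an unadjusted p under 0.05 there were 2248 on array A and 1409 on array B. With each gene represented by its brightest tested probe set, 44 of 12395 genes were higher (0.355%) and 180 lower (1.45%). The share of calls that were lower on array A was 81.7%, and 93.8% with every array scaled to a common median. It was 42.8% with array weights (1421 higher and 1064 lower), 55.2% with a covariate for the level of small subunits of the respiratory chain per sample, 58.3% without day 27 replicate 2 and 70.0% with no filter.

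The calls depended on single samples. On array A the count was 714 without day 27 replicate 2 (298 higher and 416 lower), 137 without PBS replicate 3, and 182 to 227 without any other sample. For array B, leaving out PBS replicates 1, 2 and 3 in turn left 3, 0 and 4 calls, and leaving out day 27 replicates 1, 2 and 3 left 31, 33 and 3. Of the 389 calls on array A, 99 held with each of the 6 samples left out in turn, 88 lower and 11 higher. Of the 41 on array B, 0 did. In 388 of the 389 called probe sets on array A the 3 day 27 values did not overlap the 3 PBS values, as in 20.6% of all tested probe sets.

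**Figure D1:**
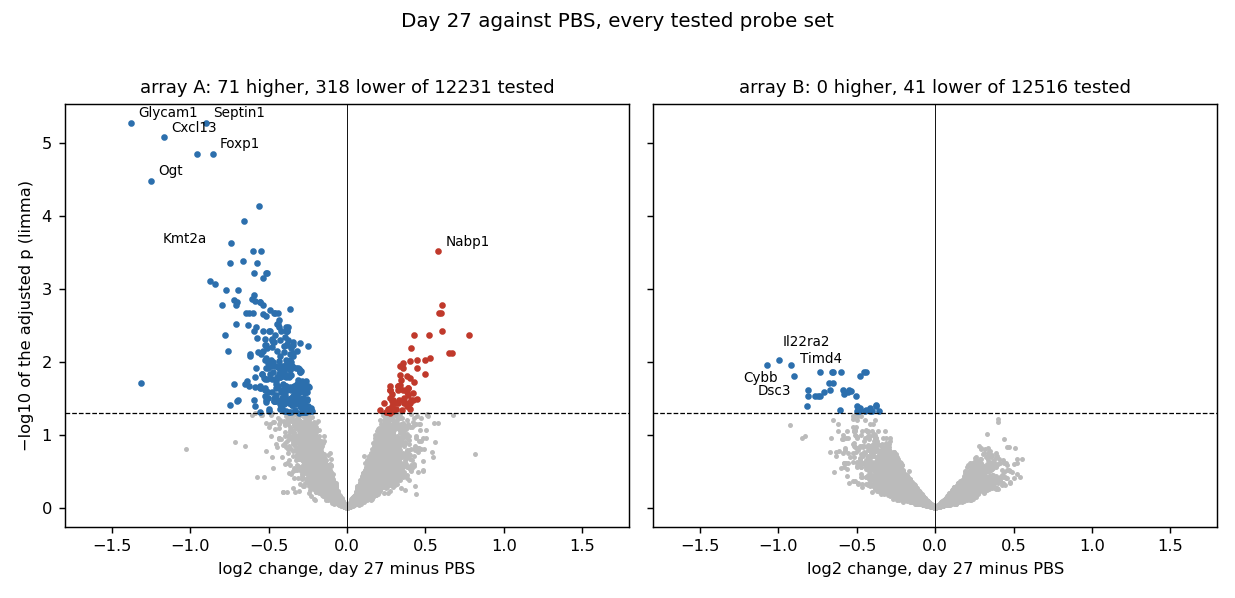
Each point is a tested probe set on array A (left) or array B (right), placed by its log2 change at day 27 against PBS and by the −log10 of its limma adjusted p. The dashed line marks an adjusted p of 0.05, blue points are called lower and red points higher, and Glycam1 on array A lies farthest to the left at -1.38.

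Transcripts of the high endothelial venule list were among those that fell most. Glycam1, a mucin-like ligand of L-selectin, read 5239, 6627 and 5555 in PBS samples and 2132, 2038 and 2530.0 after 27 days. In whole nodes, fewer cells of a type and less RNA per cell cannot be told apart. All 3 day 27 values lay below every PBS value, with a log2 change of -1.38 (SE 0.117, limma adjusted p = 5.26e-06). Madcam1, the mucosal addressin bound by the gut-homing integrin, read 736, 826 and 632 in PBS samples and 444, 517 and 454 at day 27. The groups did not overlap, and the log2 change was -0.63 (SE 0.101, limma adjusted p = 0.00215). A secreted decoy for interleukin-22 is encoded by Il22ra2, which fell on array B from 415, 421 and 347 to 202, 195 and 195. The groups of Il22ra2 did not overlap, with the 3 day 27 samples close together, at a log2 change of -0.99 (SE 0.136, limma adjusted p = 0.00947).

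Cd300lg and Ubd were the other genes of the venule list called. Cd300lg, a lymphocyte-binding glycoprotein of venular and capillary endothelium, read 458, 410.3 and 364 in PBS samples and 249.7, 271 and 219.9 at day 27 (log2 change -0.73, SE 0.114, limma adjusted p = 0.0138). Ubd, a ubiquitin-like modifier, read 688, 763 and 768 in PBS samples and 539, 517 and 552 at day 27 (-0.46, SE 0.114, limma adjusted p = 0.0315). In both genes the groups did not overlap. Of 13 tested genes of the venule list 5 were lower and 0 higher. Their median log2 change was -0.28 beside 0.03 over all genes tested. The other 8 did not pass. Among them the selectin ligand enzyme Fut7 stood at -0.12 and the chemokine-binding receptor Ackr1 at 0.04. The list was drawn up with earlier results of these data known, so its count and median are not independent support. Which cells express its members in these nodes was not tested. The call of Il22ra2 ended without PBS replicate 2 (limma adjusted p = 0.0948) and that of Cd300lg without PBS replicates 1 and 2 or day 27 replicate 3 (up to 0.102). The call of Ubd ended without any 1 sample except PBS replicate 1 (up to 0.122), and with no filter on dim probe sets (0.0839).

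Follicular dendritic cell transcripts fell in part. Cxcl13, the chemokine that draws B cells into follicles, read 1455, 1554 and 1549 in PBS samples and 648, 738 and 646 at day 27 on one probe set. The change was -1.17 (SE 0.108, limma adjusted p = 8.31e-06). A second probe set read 1574, 1388 and 1408 against 711, 822 and 720.2, a change of -0.96 (SE 0.094, limma adjusted p = 1.4e-05). Neither probe set overlapped between groups. Mfge8, a bridging protein that follicular dendritic cells secrete to mark dying cells for uptake, read 3372, 3621 and 3354 in PBS samples and 2117, 1834 and 2832 at day 27. Day 27 replicate 3 kept the highest treated level, still below every PBS sample, and the change was -0.63 (SE 0.107, limma adjusted p = 0.0031).

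With Madcam1, which counts in both lists, 3 of 14 tested follicular dendritic cell genes were lower and 0 higher, and their median change was 0.01. The complement receptor Cr2 stood at -0.02, the adhesion molecules Vcam1 and Icam1 at 0.03 and 0.04, and the brightest probe set of the chaperone Clu at -0.21 (limma adjusted p = 0.138). Clu had 1 of its 3 other probe sets called, at -0.43 (limma adjusted p = 0.0118). Cr2 is carried by B cells too. In a fit of only the day 27 and PBS samples the call of Mfge8 ended (limma adjusted p = 0.0564), while those of Cxcl13, Madcam1 and Glycam1 held in every setting tried.

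**Figure D2:**
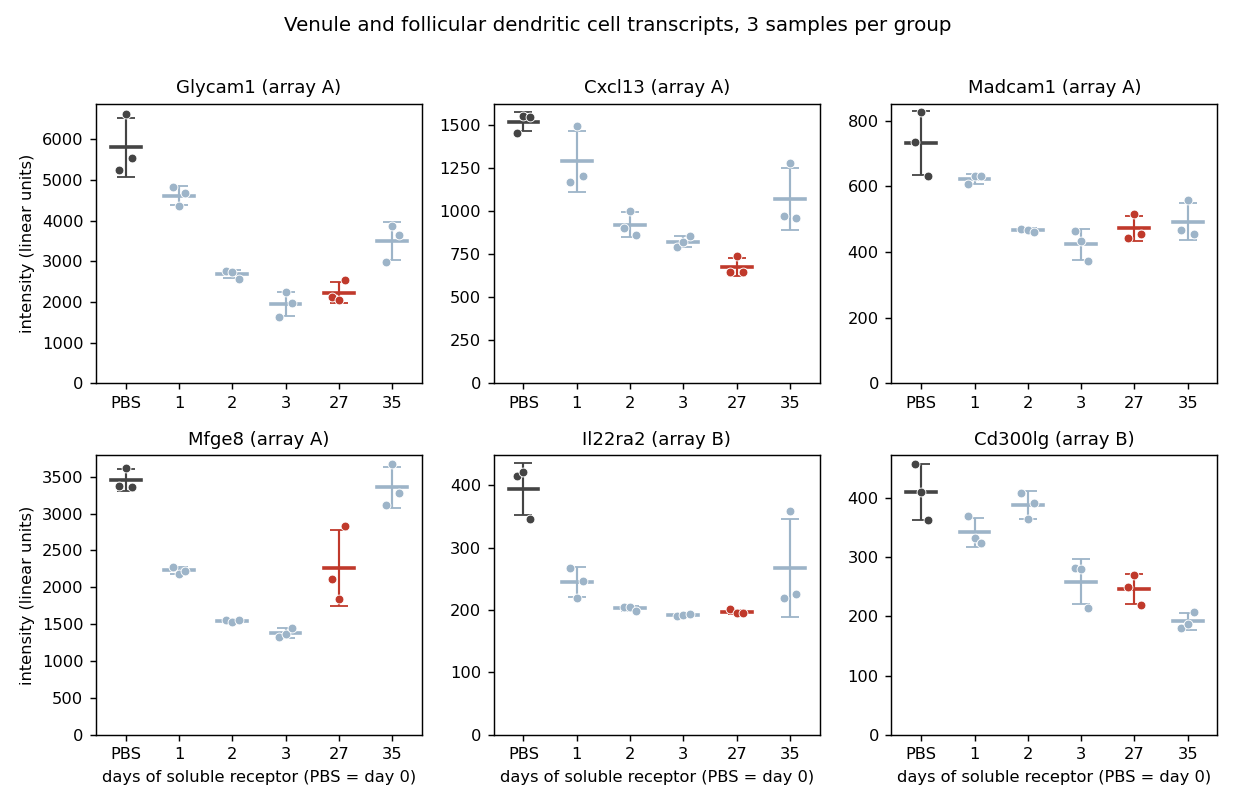
Intensity (linear units) of 6 transcripts from the venule and follicular dendritic cell lists in every sample of the series. PBS is in dark grey, day 27 in red and the other days in pale blue. Points are samples, bars the mean and whiskers 1 SD (n = 3). All 3 day 27 samples of each gene lie below its 3 PBS samples, and Mfge8 at day 27 lies between its day 3 and day 35 levels.

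Promoter sequence was available for 5 of the 7 genes called in these lists, from RefSeq on GRCm38.p6, with 250 bases before and 50 after the start of the gene. The windows were searched on both strands for the pattern GGGANNNNCC, a form of the NF-kB motif, since the receptor signals through NF-kB. It occurred in 20.7% of 32851 promoter windows of that length. The window of Cxcl13 (chr5:95956689-95956988, plus strand) held 1 match, 63 bases before the start. The window of Madcam1 (chr10:79664309-79664608, plus strand) held 3, at 84, 71 and 70 bases before it, the last of which overlaps its neighbour on the opposite strand. Those of Glycam1 (chr15:103565032-103565331, minus strand), Mfge8 and Ubd held no match to this pattern. Other forms of the motif were not searched, so any of the windows may hold them. The Cxcl13, Madcam1 and Glycam1 windows are shown, with matches to this pattern alone in capitals. They were chosen because these genes had the lowest adjusted p of the lists on array A and differ in such matches. A match is a description of the letters and not a measured binding site.
Cxcl13: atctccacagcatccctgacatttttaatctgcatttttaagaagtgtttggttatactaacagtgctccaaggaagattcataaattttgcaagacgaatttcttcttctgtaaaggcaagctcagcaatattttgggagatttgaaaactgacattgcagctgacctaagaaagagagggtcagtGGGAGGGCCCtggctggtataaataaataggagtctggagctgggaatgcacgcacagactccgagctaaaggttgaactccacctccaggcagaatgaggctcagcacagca
Madcam1: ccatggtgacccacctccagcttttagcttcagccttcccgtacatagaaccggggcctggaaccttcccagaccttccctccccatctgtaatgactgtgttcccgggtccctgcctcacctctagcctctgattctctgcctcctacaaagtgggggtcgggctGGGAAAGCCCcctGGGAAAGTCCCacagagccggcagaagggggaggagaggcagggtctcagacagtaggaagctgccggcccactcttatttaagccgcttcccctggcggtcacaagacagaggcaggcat
Glycam1: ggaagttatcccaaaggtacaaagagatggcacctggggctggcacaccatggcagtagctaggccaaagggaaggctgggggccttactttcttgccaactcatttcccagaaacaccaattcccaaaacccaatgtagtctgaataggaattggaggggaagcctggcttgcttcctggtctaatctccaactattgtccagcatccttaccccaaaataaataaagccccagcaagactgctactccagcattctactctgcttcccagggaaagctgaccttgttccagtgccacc

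On its brightest probe set, no gene of the receptor, ligand and NF-kB lists passed the test. Ltbr, the receptor itself, read 748, 680.3 and 492 in PBS samples and 657, 688 and 680.3 at day 27, with PBS replicate 3 low and the groups overlapping. Its change was 0.10 (SE 0.127). The ligand subunit genes Ltb and Lta stood at -0.02 (SE 0.111) and 0.03 (SE 0.114), and Tnf, the related cytokine, at -0.06 (SE 0.0786). Nfkb2 and Relb, the noncanonical transcription factors, stood at -0.10 (SE 0.0983) and -0.09 (SE 0.095). In all, 0 of 15 lymphotoxin and TNF genes and 0 of 12 NF-kB genes were called in limma, and 3 and 0 had an unadjusted p under 0.05. Among other probe sets, 1 of Nfkbia, the inhibitor of NF-kB, was called lower at -0.40 (SE 0.0752, limma adjusted p = 0.0061), while its brightest stood at 0.09 (0.674). The largest change in the first list was that of Tnfrsf14, the receptor of Tnfsf14, at 0.32 (limma adjusted p = 0.205). Ccl19, Ccl21a, Tnfsf14, Chst4, Cd34, Enpp2 and Tnfsf11 had no tested probe set that named them alone and were not analysed here.

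Chemokine genes other than Cxcl13 gave 1 further call. Cxcr4, the receptor for Cxcl12, read 724, 748 and 807 in PBS samples and 423, 391 and 623 at day 27. The groups did not overlap, with a change of -0.70 (SE 0.174, limma adjusted p = 0.0335). Cxcl12, made by reticular stroma, moved the other way on its brightest probe set without passing, at 2347, 2606 and 2422 in PBS samples and 3942, 2660 and 3575 at day 27 (0.45, SE 0.124, limma adjusted p = 0.0555). Another probe set of Cxcl12 on array A was called at 0.33 (limma adjusted p = 0.0212), and one on array B stood at -0.07 (0.784). Of 17 tested chemokine genes 2 were lower and 0 higher. The B cell receptor for Cxcl13, Cxcr5, stood at 0.23, and Ccr7, which guides T cells and dendritic cells, at 0.03. The call of Cxcr4 ended without any 1 sample except day 27 replicate 3 (limma adjusted p up to 0.132), in a fit of only the 2 groups (0.0595) and with no filter (0.109).

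Other vessels and reticular cells showed no called gene. Of 19 blood endothelial, 12 lymphatic endothelial and 16 reticular cell genes tested in limma, 0, 0 and 0 were called, and 3, 5 and 5 had an unadjusted p under 0.05. All 12 lymphatic genes lay above 0, with a median of 0.13 beside 0.03 over all genes. Reln, a secreted glycoprotein of lymphatic endothelium, came closest, at 415, 345 and 327 in PBS samples and 465, 453 and 439 at day 27 (0.33, SE 0.0884, limma adjusted p = 0.0501). The lymphatic transcription factor gene Prox1 stood at 0.10 and the hyaluronan receptor gene Lyve1 at 0.12. Pecam1 and Cdh5, which mark all endothelium, stood at 0.02 and 0.25 and did not pass. Pdpn, a marker of reticular and lymphatic cells, stood at 0.13 (SE 0.158), and the stromal cytokine Il7 at 0.16 (SE 0.0672).

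On their brightest probe sets, 4 genes of the matrix list were called higher and the other 31 did not pass. Lum, a proteoglycan that spaces collagen fibrils, read 617, 678 and 582 in PBS samples and 1052, 839 and 980.3 at day 27, all treated samples above all PBS samples (0.61, SE 0.0949, limma adjusted p = 0.00166). Tnc, a glycoprotein of remodelling matrix, read 436, 445 and 483 against 682, 561 and 739 (0.53, SE 0.105, limma adjusted p = 0.00897). The groups of Tnc did not overlap, with day 27 replicate 2 the lowest of the treated samples in both genes. The fibril-associated collagen Col14a1 (0.50, SE 0.107) and the fibrillar collagen Col5a2 (0.38, SE 0.0836) were called as well. So was Lamc1, a laminin chain of basement membranes (0.28, SE 0.0656), whose other probe set stood at -0.06 without a call (limma adjusted p = 0.758).

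Of 35 matrix genes 4 were higher and 0 lower on their brightest probe sets, and 31 of them lay above 0, with a median of 0.17. A less bright probe set of Fmod, a member of this list, was called lower. It read 317, 335 and 292 in PBS samples and 224, 199 and 210 at day 27 (-0.57, SE 0.104, limma adjusted p = 0.00478). That call held with each sample left out (up to 0.031). Of 10 basement membrane genes 1 was higher. Col3a1 and Col1a1, chains of the main fibrillar collagens of this tissue, stood at 0.40 (limma adjusted p = 0.118) and 0.15 (0.395) and did not pass. Without day 27 replicate 2, 8 matrix genes were higher, without day 27 replicate 3, 1 was, and in a fit of only the 2 groups or with the covariate 2 were. The call of Tnc ended without day 27 replicate 3 (limma adjusted p = 0.0549) and those of Col14a1, Col5a2 and Lamc1 without 4 or 5 of the 6 samples (up to 0.0796, 0.0825 and 0.11). Lamc1 was also not called under quantile scaling (0.0845) or a common median (0.104). Of 13 matrix protease and inhibitor genes 0 were called, and 2 had an unadjusted p under 0.05.

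Macrophage genes moved both ways. Slc40a1, the iron exporter ferroportin, read 364, 453 and 473 in PBS samples and 728, 625 and 865 at day 27 (0.78, SE 0.139, limma adjusted p = 0.00426). Adgre1, which encodes the F4/80 antigen, read 365, 479 and 437 against 686, 531 and 809 (0.65, SE 0.126, limma adjusted p = 0.00756). Neither gene's groups overlapped, and day 27 replicate 2 was the lowest treated sample of both. The C-type lectin Clec4n, named after its values were seen, stood at 0.34 (limma adjusted p = 0.0114). Lyz2, the lysozyme of macrophages and granulocytes, fell from 5762, 5733 and 5933 to 3985, 3703 and 4159 (-0.56, SE 0.0625, limma adjusted p = 7.29e-05). On array B, Timd4, which lets tissue macrophages bind dying cells, fell from 452, 396 and 386 to 236, 219 and 196 (-0.92, SE 0.138, limma adjusted p = 0.0111).

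In the macrophage list 3 of 25 genes were higher, 2 lower and 20 did not pass, with a median of 0.07. Siglec1, a marker of subcapsular and medullary sinus macrophages, stood at -0.01, Marco at 0.13 and Cd68 at -0.06. On array B the oxidase subunit gene Cybb read 857, 842 and 864 in PBS samples and 540.5, 454 and 391 at day 27 (-0.90, SE 0.154, limma adjusted p = 0.0158). Its other probe sets stood at -0.44 on array B and -0.12 on array A and were not called. Without single samples the calls of Timd4 (PBS replicates 1 and 2 or day 27 replicate 3, adjusted p up to 0.0948), Cybb (any except day 27 replicates 1 and 2, up to 0.102) and Clec4n (PBS replicate 2, 0.0615) ended. In a fit of only the 2 groups that of Adgre1 ended (0.0696), and another probe set of Slc40a1 stood at 0.42 without a call (0.0675). Of 23 lysosome and phagocyte genes 1 was lower, the acid phosphatase gene Acp5 at -0.28 (limma adjusted p = 0.0368), a call that ended without any 1 sample except day 27 replicate 3. On their brightest probe sets, 0 of 14 complement, 19 dendritic cell and 11 class II genes were called. An unadjusted p under 0.05 was found for 4, 2 and 2. In the dendritic cell list, less bright probe sets of Irf8 and Fscn1 were called, lower and higher.

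Immunoglobulin A transcripts rose. The brightest of 3 Igha probe sets, for the constant region of the immunoglobulin A heavy chain, read 7170.2, 6056 and 6498 in PBS samples and 10231, 9837 and 9801 at day 27. Its change was 0.60 (SE 0.0978, limma adjusted p = 0.00215), and the others were called at 0.60 and 0.59, all 3 without overlap between groups. The probe sets may share sequence with other immunoglobulin genes. Other plasma cell genes did not follow. Jchain, which links the polymers of immunoglobulin A, stood at 0.13, the secretory transcription factor Xbp1 at 0.18 and the plasma cell surface protein Sdc1 at 0.11, none of them called. Of 18 plasma cell genes 1 was higher and 1 lower, the latter Ssr4, a subunit of the translocon complex (-0.41, SE 0.0893, limma adjusted p = 0.0156), whose other probe sets stood at 0.08 and 0.13. The call of Ssr4 ended without 4 of the 6 samples (up to 0.0877), in a fit of only the 2 groups (0.113) and with the covariate (0.143).

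**Figure D3:**
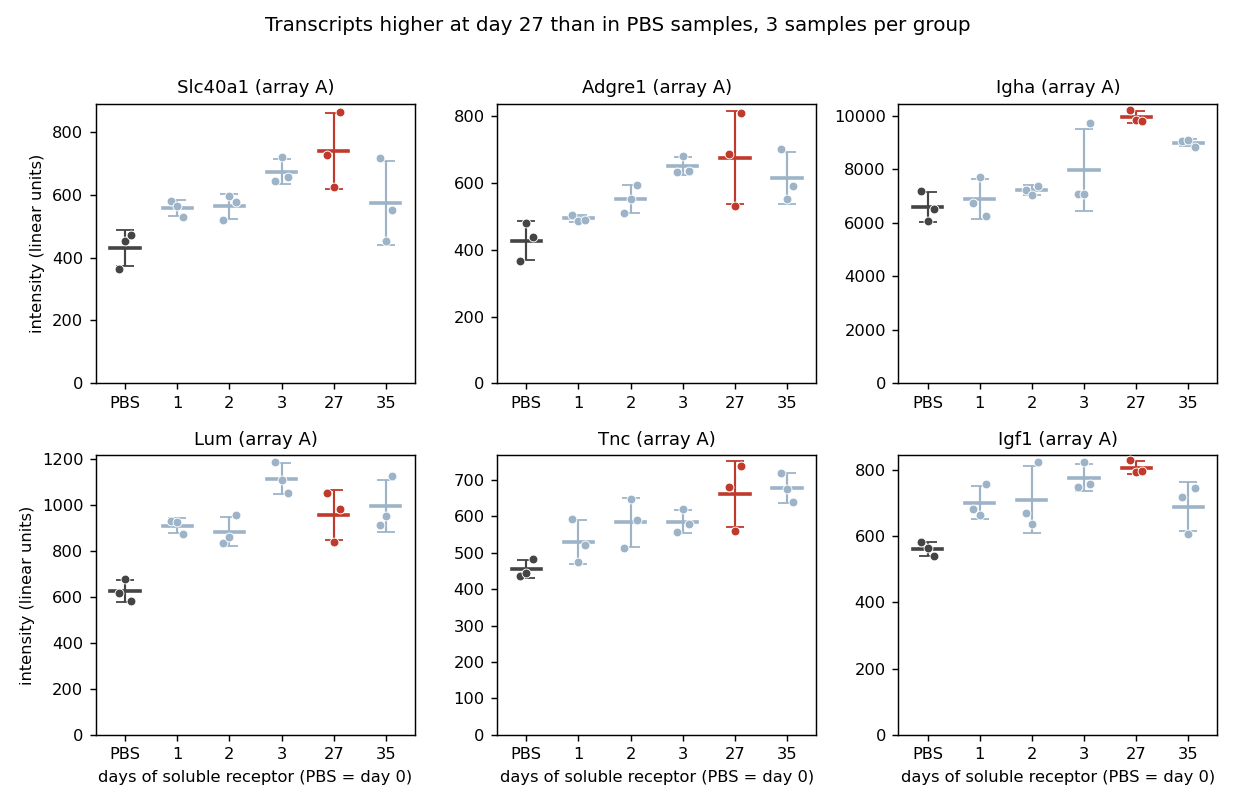
Intensity (linear units) of 6 transcripts that were higher at day 27, in every sample of the series, with PBS in dark grey, day 27 in red and the other days in pale blue. Points are samples, bars the mean and whiskers 1 SD (n = 3). All day 27 samples lie above all PBS samples, and day 27 replicate 2 is the lowest red point for Slc40a1, Adgre1, Lum and Tnc.

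The lymphocyte lists gave single calls or none, where 1.45% of all genes were called lower and 0.355% higher. Cd79a, a signalling chain of the B cell receptor, read 3459, 3424 and 3342 in PBS samples and 2654, 2785 and 2405 at day 27 without overlap (-0.38, SE 0.0719, limma adjusted p = 0.00594). It was the only call among 24 B cell genes, whose median was 0.01. Ms4a1, the CD20 gene, stood at -0.17 and Cd22, an inhibitory receptor, at 0.16. Among 22 T cell genes 1 was lower, the adaptor gene Lat at -0.31 (limma adjusted p = 0.0342), with a median of -0.04. Of 7 germinal centre, 10 natural killer and 8 mast cell and granulocyte genes 0 were called in limma, and 1, 3 and 0 had an unadjusted p under 0.05. Among 29 cell cycle genes 1 was lower, the chromatin protein gene Hmgb2 at -0.50 (SE 0.0875, limma adjusted p = 0.00381), and 21 lay below 0. In a fit of only the 2 groups the calls of Cd79a (limma adjusted p = 0.0517) and Lat (0.154) ended, and that of Lat also ended without 4 of the 6 samples (up to 0.174).

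In the lipid synthesis list 2 genes were called higher. Srebf1, the transcription factor that drives fatty acid synthesis, read 1363, 1477 and 1116 in PBS samples and 1950.2, 1610.4 and 1822 at day 27, without overlap (0.45, SE 0.0895, limma adjusted p = 0.00936). Dhcr7, the last enzyme of cholesterol synthesis, was called at 0.31 (SE 0.0824, limma adjusted p = 0.0444). In this list of 21 tested genes 0 were lower and 19 lay above 0, with a median of 0.20. The count of 2 became 0 without PBS replicate 3 or day 27 replicate 1 or with the covariate, and 4 without day 27 replicate 2. Elovl6 (0.58), Acly (0.52) and Sqle (0.51), enzymes of fatty acid elongation, cytosolic acetyl-CoA supply and sterol synthesis, did not pass (limma adjusted p = 0.0697, 0.0553 and 0.0524). The call of Srebf1 ended without PBS replicate 3 or day 27 replicate 1 (limma adjusted p up to 0.0577) and in a fit of only the 2 groups (0.109). That of Dhcr7 ended without any 1 sample except day 27 replicate 2 (up to 0.173). Fat cells make many of these enzymes, and of 20 fat cell genes 0 were called in limma, 4 had an unadjusted p under 0.05, and the summed level overlapped between groups. The part of fat tissue in the lipid result was not tested.

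Tissue next to the node was measured through marker lists. Summed over 12 pancreas genes the level was 3575 to 3991 intensity units in PBS samples and 4076 to 4305 at day 27, and over 19 intestinal genes 2970.0 to 3578 and 3426 to 3992. Of the 4 and 5 of them bright enough to test, 0 were called. Red cell genes summed to 3627 to 4000.0 and 3621 to 4162. Among 9 tested red cell genes 1 was called, the beta globin gene Hbb-b2, at 322, 548 and 422 in PBS samples and 123, 238 and 166 at day 27 (-1.32, SE 0.296, limma adjusted p = 0.0197). Its call ended without PBS replicates 2 or 3 or day 27 replicates 1 or 3 (up to 0.0975) and with no filter (0.0833). The part of neighbouring tissue in the stromal results was not tested.

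**Figure D4:**
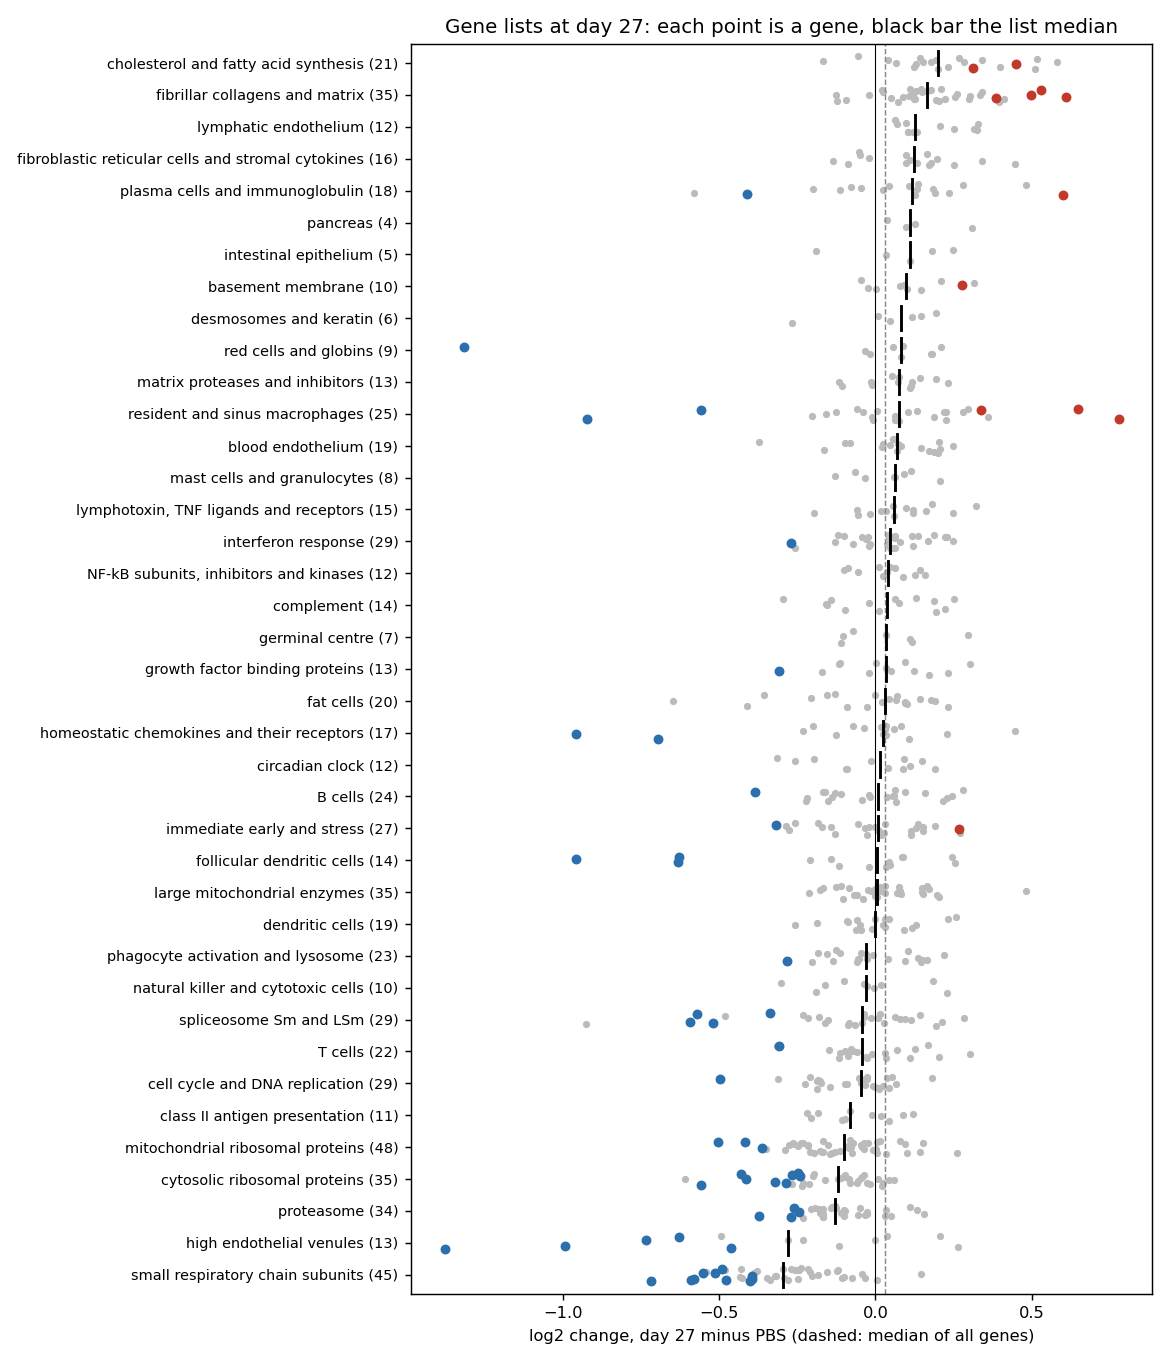
Log2 change at day 27 against PBS of every tested gene in 39 lists, with the number of genes in brackets. Grey points are genes not called, blue points called lower and red points called higher; black bars are list medians and the dashed line the median of all genes, 0.03. The venule list and the small respiratory chain subunits have the lowest medians, at -0.28 and -0.29, and the lipid synthesis and matrix lists the highest.

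Of 45 small subunits of the respiratory chain and ATP synthase 10 were lower and 0 higher, 43 lay below 0, and the median was -0.29. Cox17, a copper chaperone for cytochrome oxidase, read 979, 1048 and 1109 in PBS samples and 633, 677 and 597 at day 27 (-0.72, SE 0.109, limma adjusted p = 0.00142). Atp5j, an ATP synthase subunit gene, read 1681, 1682 and 1724 against 1195, 1303 and 1156 (-0.48, SE 0.0869, limma adjusted p = 0.0049). Of these 10 calls, 8 ended when some 1 sample was left out. The count was 2 without PBS replicate 3 or day 27 replicate 3. It was 4 or 5 without PBS replicates 1 or 2 or day 27 replicate 1. Without day 27 replicate 2 it was 22, and with a common median 24. With the covariate it was 1, but the covariate is the mean of this same list, so that drop was largely fixed in advance. Among 35 large mitochondrial enzymes 0 were called in limma, 4 had an unadjusted p under 0.05, and the median was 0.01.

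Proteins of the ribosome, proteasome and spliceosome gave calls in the same direction. Of 35 cytosolic ribosomal protein genes 8 were lower, led by Rplp2 at 6888, 6748 and 6665 in PBS samples and 5158, 5172 and 4734 at day 27 (-0.43, SE 0.0718, limma adjusted p = 0.00266). Of 48 mitochondrial ribosomal protein genes 3 were lower, of 34 proteasome genes 4, and of 29 spliceosome genes 4, among them Snrpg (-0.59, SE 0.104) and Snrpe (-0.57, SE 0.11). In each of these 4 lists 0 were higher. Leaving out 1 sample in turn gave 2 to 12 cytosolic ribosomal, 1 to 10 mitochondrial ribosomal, 0 to 3 proteasome and 2 to 6 spliceosome genes called lower. Each of the 4 was at its lowest without PBS replicate 3, alone or tied, and at its highest without day 27 replicate 2. In a fit of only the 2 groups the counts were 3, 0, 0 and 2, and with the covariate 2, 0, 0 and 0. The remaining lists gave single calls or none in each direction, where 1.45% of all genes were called lower and 0.355% higher. Of 13 growth factor binding genes 1 was lower (Igfbp7, -0.31, limma adjusted p = 0.0227), and its other probe set stood at 0.01 without a call (0.967). Of 29 interferon response genes 1 was lower (Psmb9, an immunoproteasome subunit, -0.27, limma adjusted p = 0.0461). Of 12 clock genes 0 were called, with 2 at an unadjusted p under 0.05. Of 27 immediate early and stress genes 1 was higher, Nr4a1 at 0.27 (limma adjusted p = 0.0456), and 1 lower, the chaperonin gene Hspe1 at -0.32 (0.0372). Each of these 4 calls ended without 3 to 5 of the 6 samples (up to 0.206).

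The level of the small subunits differed between samples. Their mean centred log2 value was 0.107, 0.145 and 0.138 in PBS samples and -0.16, -0.0179 and -0.285 in day 27 replicates 1, 2 and 3, so replicate 2 lay nearest to PBS. With that mean as a covariate 206 probe sets were lower and 167 higher on array A, and 2 lower and 0 higher on array B. The mean was taken from array A and matched to array B samples by day and replicate number. The labels do not say that samples so matched share the same RNA, which limits the covariate results on array B. The 4 stromal genes Glycam1, Cxcl13, Madcam1 and Mfge8 kept their calls with the covariate. Il22ra2, Lum, Slc40a1 and Lyz2 kept theirs as well. In all, 39 of the 66 named calls ended with it. Those of Cd300lg (limma adjusted p = 0.142), Ubd (0.142), Timd4 (0.0663), Cybb (0.144), Cd79a (0.0658), Adgre1 (0.0563), Fscn1 (0.108), Tnc (0.0704), Col14a1 (0.0676), Col5a2 (0.142), Lamc1 (0.0882), Srebf1 (0.0766), Dhcr7 (0.155), Dsc3 (0.0917), Hbb-b2 (0.072) and 2 of the 3 Igha probe sets (0.0511 and 0.0676) were among them. The sources used here give no measure of RNA quality, and the part of RNA quality in these values was not tested.

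**Figure D5:**
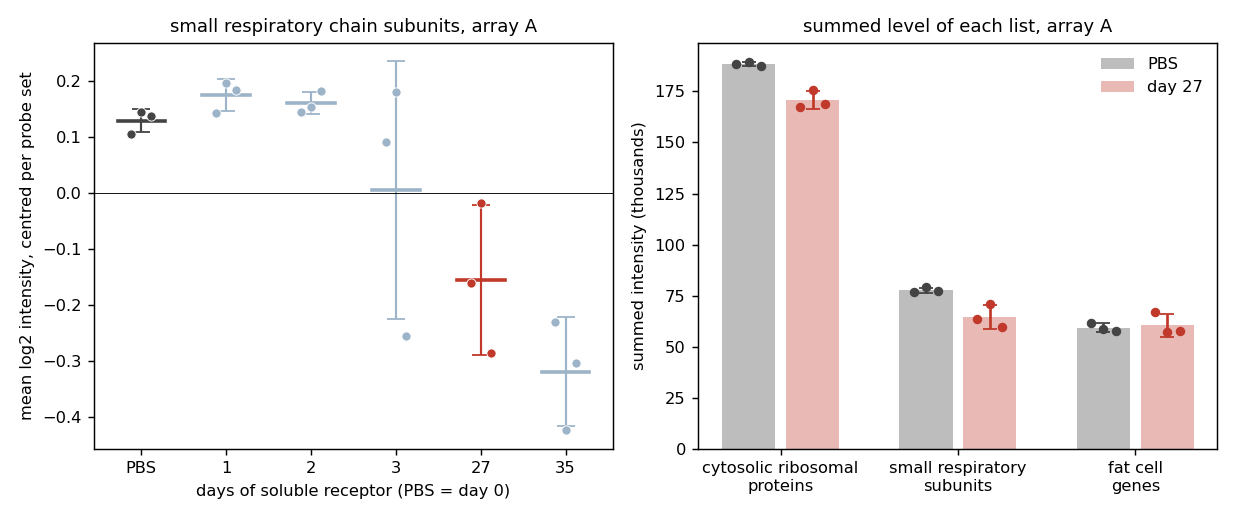
Left, mean log2 intensity of 81 probe sets for small respiratory chain subunits on array A, centred per probe set, in every sample, with the mean and 1 SD of each group (n = 3). Right, summed intensity (in units of 1000) of 3 gene lists in the PBS (grey) and day 27 (red) samples, bars showing means with 1 SD; the ribosomal protein and small subunit sums do not overlap between groups and the fat cell sums do.

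Among the 12 largest falls on array A whose calls held with every sample left out were several regulators of transcription, RNA and glycosylation. The probe sets described here were already lower on average at day 3 than at day 2. Means at days 2, 3, 27 and 35 were 912, 469, 384 and 352 for Ogt and 397, 233, 216 and 221 for Foxp1. The probe set of Ogt, the enzyme that adds N-acetylglucosamine to intracellular proteins, read 970.1, 851 and 893 in PBS samples and 354, 471 and 327 at day 27 (-1.25, SE 0.131, limma adjusted p = 3.25e-05). Its other 4 tested probe sets stood between -0.04 and 0.21 and were not called. Foxp1, a forkhead transcription factor of lymphocytes, read 379, 401 and 386 against 205, 202 and 239.5 (-0.85, SE 0.0832, limma adjusted p = 1.4e-05). Of its 7 other tested probe sets 2 were called, at -0.46 and -0.29. The other 5 stood between -0.37 and 0.07, with the brightest of all at 0.06, and were not called. Pum2, an RNA-binding repressor (-0.79), and Kmt2a, a histone methyltransferase (-0.74), likewise fell on 1 probe set, while their other probe sets stood at 0.15, 0.06 and -0.23 for Pum2 and at -0.09 for Kmt2a and were not called.

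Other members of that group had support from a second probe set or no other probe set. Septin1, a cytoskeletal GTPase, read 944, 829.8 and 885 in PBS samples and 453, 519 and 456 at day 27 on its only tested probe set (-0.90, SE 0.0784, limma adjusted p = 5.26e-06). Rps27l, a homologue of a ribosomal protein, was lower on 3 of 3 probe sets, at -0.87, -0.76 and -0.56. Cks1b, a subunit of cyclin-dependent kinases, was lower on both of its probe sets, at -0.77 and -0.40, and the noncoding host transcript Snhg6 stood at -0.84 (SE 0.12, limma adjusted p = 0.000846). Over all genes called lower, 166 had more than 1 tested probe set, of which 28 had at least 2 called lower and 76 had a probe set with a positive change. Of 38 such genes called higher, 4 had at least 2 called and 14 had a probe set with a negative change.

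Rises not counted in the lists that held with each sample left out were few. Igf1 and Fscn1 belong to the growth factor binding and dendritic cell lists. Those lists count the brightest probe set of a gene, which was not called for either. Igf1, a growth factor made by macrophages and stroma, read 581, 565 and 540.4 in PBS samples and 829.9, 796 and 798 at day 27 (0.52, SE 0.0935, limma adjusted p = 0.00426), and a second probe set was called at 0.39 (0.0406). Nabp1, a single-stranded DNA-binding protein, read 567, 578 and 542 against 836, 803 and 885 (0.58, SE 0.0743, limma adjusted p = 0.000306), and its 4 other probe sets, none called, stood at 0.23, 0.09, 0.44 and 0.35. Fscn1, an actin-bundling protein of mature dendritic cells, was called on 1 probe set at 0.67 (SE 0.129, limma adjusted p = 0.00756). Its 3 other probe sets stood at -0.23, -0.17 and -0.06, the opposite sign, and the last of them was brighter over the compared samples, at 2305 in PBS samples and 2204 at day 27 on average. The potassium channel gene Kcnj10 (0.41) and the poly(A) polymerase gene Papolb (0.43) completed the rises that held with each sample left out.

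Dsc3, a desmosomal cadherin, differed between the arrays. On array B it read 315, 389 and 301 in PBS samples and 194.8, 173 and 203 at day 27 (-0.81, SE 0.146, limma adjusted p = 0.024), a call that ended without any 1 sample except day 27 replicate 1 (up to 0.181). On array A its probe set stood at -0.27 (SE 0.0957, limma adjusted p = 0.14). Of the 6 tested desmosome and keratin genes 0 were called, and 1 had an unadjusted p under 0.05. The arrays carry 100 probe sets in common, of which 94 were tested on both. Their log2 changes differed between arrays by a median of 0.15. Of these, 4 were called on array A, 3 on array B and 2 on both, among them Pabpn1, a nuclear poly(A)-binding protein, at -0.42 and -0.59.

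Day 27 was also set against day 3 and day 35 of the same treatment, in the same fit. These contrasts share no PBS sample, but both use the day 27 samples. Against day 35, limma called 0 of 12231 probe sets on array A (0%) and 0 of 12516 on array B (0%), with 815 and 354 at an unadjusted p under 0.05. Against day 3 it also called 0 and 0 (0% and 0%), with 1143 and 256 at an unadjusted p under 0.05. With limma array weights, 464 probe sets were called against day 35 and 1002 against day 3 on array A, and 38 were called against day 3 without day 3 replicate 3 and 5 without day 27 replicate 2. Against day 35, 6 were called without day 27 replicate 3, 2 without day 35 replicate 3 and 1 without day 27 replicate 2.

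The levels of the stromal genes on these days are given as values, since none of the differences passed. Mfge8 read 1319.9, 1369 and 1452 at day 3, 2117, 1834 and 2832 at day 27 and 3122, 3669 and 3271 at day 35. The 3 days did not overlap, with day 27 above day 3 by 0.69 (SE 0.107, limma adjusted p = 0.0534) and below day 35 by a log2 change of -0.59 (SE 0.107, limma adjusted p = 0.0821). Both differences missed the threshold. The first was called under quantile scaling (0.00307), a common median (0.0417), the stricter filter (0.0489) and the covariate (0.0376), and without day 27 replicate 2 (0.00116) or day 3 replicate 3 (0.0191). The second was called under quantile scaling (0.0295) and without day 27 replicate 3 (0.000278). With array weights both were called.

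Glycam1 read 1640, 2244 and 1979.6 at day 3 and 2974, 3865 and 3650.0 at day 35, so day 27 overlapped day 3 and lay below every day 35 sample. Its change against day 35 was -0.64 (SE 0.117, limma adjusted p = 0.0821), called under quantile scaling (0.0406) and without day 27 replicate 3 (0.0334). Cxcl13 was lower at day 27 than at day 35 by -0.65 and -0.51 on its 2 probe sets (SE 0.108 and 0.094, limma adjusted p = 0.0821 for each), and the first was called under quantile scaling (0.0295) and both without day 35 replicate 3 (0.0476). Against day 3 these probe sets differed by -0.28 and -0.28 without a call. Madcam1 at day 27 differed from day 35 by -0.06 and from day 3 by 0.16, neither called. On array B, Il22ra2 stood at 0.04 against day 3 and -0.41 against day 35, both with a limma adjusted p of 1, and Cd300lg at -0.06 and 0.36, also with an adjusted p of 1. Lyz2 was lower than at day 35 by -0.36 (SE 0.0625, limma adjusted p = 0.0821), and day 27 had the lowest mean level of Lyz2 of the 6 groups, 3949 ± 230 (SD, n = 3).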

How the data were processed

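Total RNA of mouse mesenteric lymph nodes was hybridised to 2 Affymetrix arrays. The deposited tables hold 1 intensity per probe set and sample on a linear scale. Medians of the compared samples lay between 272.9 and 296.5 on array A and between 155.1 and 159.4 on array B. Whether the values had been brought to a common scale before deposit is not stated. The sources used here name neither software nor scaling method. Each table was analysed on its own. Intensities were floored at the 20th percentile of the table (122.7 on array A, 76.6 on array B) and log2 transformed. A probe set was tested if it exceeded the table median on at least 3 of 18 arrays, 64 control probe sets being left out of each table. All 6 groups entered one limma 3.58.1 fit in R 4.3.3 (lmFit, eBayes with a mean-variance trend), with Benjamini-Hochberg adjustment within table and comparison and calls at 0.05. A gene was represented by its brightest tested probe set, on array A first. Symbols came from the platform annotation, which gives 1 symbol to 20380 probe sets of array A and 14661 of array B, and several to 691 and 245.

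The members and gene lists were chosen with earlier results of these data known. Named genes were, from array A, the 12 strongest changes each way without overlap and held with each sample left out, the 5 largest each way on array B, up to 4 called genes per list (or the 2 with the smallest p), and a fixed set of stromal and receptor genes; other list members are named as examples. In simulated data array A recovered 89.7% of 68 probe sets changed by 0.5 on the log2 scale, and array B 77.9%. The simulated noise was independent and had the same spread on every array, unlike the real samples, so these shares need not hold for them. Alternatives covered scaling, floor, filter, groups in the fit, replicate block, variance trend, array weights, a small-subunit covariate and single samples. Tables and figures were made with Python 3.11.15, pandas 2.3.3 and matplotlib 3.10.9.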

Additional observations from a re-analysis of the deposited data

How the results depend on the processing

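Of 116 named probe sets 66 were called, 0 reversed in any setting, and 22 kept their call in every setting. Counts moved more. On array A, 71 higher and 318 lower became 45 and 677 with a common median, 11 and 102 with only the compared groups fitted, 1421 and 1064 with array weights, and 167 and 206 with the small-subunit covariate; without the filter 117 were higher. On array B, 41 lower became 21 under quantile scaling, 17 with no filter, 16 with only the compared groups, 283 with array weights (62 higher) and 2 with the covariate. With a replicate block, array B had 41 higher and 179 lower, and array A 80 and 329. Whether replicate numbers pair the samples cannot be decided with 3 samples per group. On array A, deviations of same-numbered samples correlated at -0.217, -0.0848 and 0.0498, where different numbers gave -0.218 to 0.289. For array B, same numbers gave 0.381, -0.13 and 0.288, and different numbers lay between -0.518 and 0.245. Leaving out 1 sample gave 18 to 298 higher and 119 to 416 lower on array A, and 0 to 3 and 0 to 33 on array B. Against day 35, array A had 4 calls under quantile scaling, 1 with the replicate block, 464 with array weights and 0 to 6 with 1 sample left out, and array B 7 with no filter. Against day 3, array A had 2 under quantile scaling, 4 with a common median, 1 with the stricter filter, 1002 with array weights, 94 with the covariate and 0 to 38 with 1 sample left out, and array B 1 with the replicate block. The cause was not tested. Having 3 samples per group limits the precision.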

Other observations

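Several immune regulators not counted among the list calls were lower at day 27. They were chosen after their values were seen, from the calls on array A that held with each sample left out. Csf2rb and Pla2g2d are in no list, and Irf8 is in the dendritic cell list, where its brightest probe set counts. Csf2rb, the shared receptor chain for GM-CSF, interleukin-3 and interleukin-5, read 699, 758 and 766 in PBS samples and 467, 401 and 509 at day 27 (log2 change -0.70, SE 0.102, limma adjusted p = 0.00104). Irf8, a transcription factor of B cells, macrophages and dendritic cells, read 1680.4, 1710 and 1614 against 1224, 1078 and 1342 (-0.46, SE 0.0853, limma adjusted p = 0.00536). In neither gene did the groups overlap. Pla2g2d, a secreted phospholipase of lymphoid tissue, read 628, 595 and 583 against 414, 407 and 425 (-0.53, SE 0.0751, limma adjusted p = 0.000716), and its second probe set was called at -0.32 (0.0201). The other probe set of Csf2rb, on array B (-0.30, limma adjusted p = 0.41), and that of Irf8 (-0.19, 0.325) were not called.

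Nfkbia, the inhibitor that NF-kB induces, depended on the probe set. The brightest stood at 0.09 (limma adjusted p = 0.674), while another read 1973, 2123 and 2218 in PBS samples and 1629.5, 1543 and 1607 at day 27 (-0.40, limma adjusted p = 0.0061), a call that held with each sample left out. A further 3 probe sets stood at -0.29, -0.34 and -0.32 and were not called.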
